A study of Mus musculus with 6 samples.

Results

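The regions described here are open-chromatin peaks that were listed in the posterior second heart field (pSHF) but not in the atria (HT) of the mouse embryo, and whose summit lay within 1 kb of either end of an annotated gene. They were found in the authors' peak lists by 2 conditions: no overlap of even 1 bp with an HT peak, and a summit at most 1000 bp from a gene start or gene 3′ end of any RefSeq gene of GRCm38.p6, whose coordinates are those of mm10. Of 44018 pSHF peaks, 2652 met both, out of 93285 peaks in both lists. They made up 17.5% of the 15132 pSHF peaks with no HT overlap (95% interval 16.9 to 18.1) and 14.5% of the 18234 pSHF peaks at gene ends (14.0 to 15.1). Of all pSHF peaks, at any position, 34.4% overlapped no HT peak. The mirror set held 3220 HT-restricted peaks at gene ends, 18.6% of 17327.

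The study assayed wild-type CD1 embryos, an outbred strain, at embryonic day 10. pSHF and atria were microdissected, pooled and dissociated with TrypLE, and open DNA was tagged with Tn5 transposase (ATAC-seq). Each tissue had 3 samples, but the values analysed here came as 1 peak list per tissue. No value can therefore be set against a spread between replicates, and no comparison below carries a test. Absence from the HT list is a statement about the threshold of that list and does not show closed chromatin. Since each sample was a pool of dissected tissue, fewer cells of a type and less open chromatin per cell cannot be told apart.

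The pSHF is splanchnic mesoderm behind the heart whose cells enter the venous pole and contribute to the atria and the atrial septum. Hedgehog ligand from the neighbouring foregut endoderm acts on these cells, and Gli transcription factors carry that signal to target genes. Promoters are of broad kinds: CpG-rich promoters, typical of housekeeping and many developmental genes, are open in most tissues, while CpG-poor promoters tend to be open in few cell types.

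The sequences below show how varied the promoters with such a peak were. Each is the 300-base RefSeq window of GRCm38.p6 that runs from 250 bases before to 50 after a gene start, printed 5′ to 3′ on the gene's strand, and each holds the summit of a pSHF-restricted peak. Capitals mark CpG dinucleotides, whose density differed between the classes of promoter described further on. Twist2, Wnt1 and Hoxd13 are CpG-rich, Col6a1, Cldn4, Rarg and Amt are CpG-poor, and none of these 7 had an HT peak within 1 kb of its start. Epcam and Grhl3 had an HT peak nearby.
Twist2: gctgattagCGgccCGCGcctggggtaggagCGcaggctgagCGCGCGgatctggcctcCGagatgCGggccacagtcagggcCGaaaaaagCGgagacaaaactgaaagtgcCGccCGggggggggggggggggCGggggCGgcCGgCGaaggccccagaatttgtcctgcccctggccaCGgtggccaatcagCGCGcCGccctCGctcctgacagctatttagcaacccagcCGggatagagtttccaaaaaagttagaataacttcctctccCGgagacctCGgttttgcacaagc
Wnt1: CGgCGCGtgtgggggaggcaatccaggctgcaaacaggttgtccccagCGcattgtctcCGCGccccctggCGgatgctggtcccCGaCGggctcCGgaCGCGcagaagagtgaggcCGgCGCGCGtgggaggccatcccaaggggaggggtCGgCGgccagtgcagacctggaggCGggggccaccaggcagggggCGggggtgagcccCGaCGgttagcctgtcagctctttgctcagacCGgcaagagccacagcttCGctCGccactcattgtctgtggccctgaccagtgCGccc
Hoxd13: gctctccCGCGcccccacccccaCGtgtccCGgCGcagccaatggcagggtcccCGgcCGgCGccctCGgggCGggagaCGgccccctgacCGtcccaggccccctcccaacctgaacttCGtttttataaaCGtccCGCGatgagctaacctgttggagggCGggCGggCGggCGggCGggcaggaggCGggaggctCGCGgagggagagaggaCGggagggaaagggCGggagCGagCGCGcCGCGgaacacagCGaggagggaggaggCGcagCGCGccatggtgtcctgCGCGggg
Col6a1: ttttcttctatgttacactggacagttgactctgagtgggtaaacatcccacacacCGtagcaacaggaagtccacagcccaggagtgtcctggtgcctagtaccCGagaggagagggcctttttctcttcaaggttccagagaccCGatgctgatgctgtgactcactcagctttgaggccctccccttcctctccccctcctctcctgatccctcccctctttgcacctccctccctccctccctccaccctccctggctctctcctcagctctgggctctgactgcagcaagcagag
Cldn4: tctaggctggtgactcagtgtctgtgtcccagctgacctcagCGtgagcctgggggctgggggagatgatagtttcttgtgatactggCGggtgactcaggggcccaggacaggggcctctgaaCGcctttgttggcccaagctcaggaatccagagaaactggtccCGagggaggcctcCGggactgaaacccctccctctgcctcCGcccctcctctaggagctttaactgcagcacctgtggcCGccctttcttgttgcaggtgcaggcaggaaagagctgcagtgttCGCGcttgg
Rarg: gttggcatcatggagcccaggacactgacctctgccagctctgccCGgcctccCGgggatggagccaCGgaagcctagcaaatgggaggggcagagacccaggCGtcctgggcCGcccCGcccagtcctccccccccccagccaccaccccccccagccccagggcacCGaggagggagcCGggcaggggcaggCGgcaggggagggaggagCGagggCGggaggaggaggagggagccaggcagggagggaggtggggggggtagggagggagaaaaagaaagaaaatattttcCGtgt
Amt: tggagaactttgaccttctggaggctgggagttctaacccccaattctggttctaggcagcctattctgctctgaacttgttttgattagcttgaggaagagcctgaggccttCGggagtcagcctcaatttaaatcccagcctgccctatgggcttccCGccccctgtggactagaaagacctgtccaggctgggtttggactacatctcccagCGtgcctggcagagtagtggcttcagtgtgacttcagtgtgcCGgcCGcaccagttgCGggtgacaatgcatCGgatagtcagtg
Epcam: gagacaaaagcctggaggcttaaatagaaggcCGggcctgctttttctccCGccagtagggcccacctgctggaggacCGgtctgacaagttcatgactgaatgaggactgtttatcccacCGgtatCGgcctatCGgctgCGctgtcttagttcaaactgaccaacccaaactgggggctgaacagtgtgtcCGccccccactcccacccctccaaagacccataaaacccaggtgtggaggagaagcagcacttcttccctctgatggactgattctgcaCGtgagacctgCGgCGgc
Grhl3: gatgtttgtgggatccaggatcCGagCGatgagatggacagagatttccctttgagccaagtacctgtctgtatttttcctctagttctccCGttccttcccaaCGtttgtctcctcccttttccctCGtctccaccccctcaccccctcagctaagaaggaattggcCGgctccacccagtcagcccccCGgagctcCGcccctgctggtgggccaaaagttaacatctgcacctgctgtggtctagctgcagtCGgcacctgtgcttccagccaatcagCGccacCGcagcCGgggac

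Twist2 encodes a basic helix-loop-helix factor of mesenchyme. Its window (chr1:91801211-91801510, plus strand) held 25 CpG, an observed-to-expected ratio of 0.803, and the summit lay 95 bp upstream of the start. Wnt1 encodes a secreted ligand (chr15:98789607-98789906, plus strand, 26 CpG, ratio 0.699, summit 175 bp upstream). Hoxd13 is the most posterior gene of its cluster (chr2:74667975-74668274, plus strand, 37 CpG, ratio 0.904, summit 144 bp upstream). The Hoxd13 window held 7 matches to GGGCGG, the letters bound by SP factors, and 2 overlapping matches to TATAAA on opposite strands. Col6a1, a collagen VI chain, stood at the other extreme with 3 CpG and a ratio of 0.134 (chr10:76725995-76726294, minus strand, summit 32 bp downstream). The tight-junction gene Cldn4 had 9 CpG and a ratio of 0.324 (chr5:134946885-134947184, minus strand, summit 116 bp upstream). Rarg, the gamma retinoic acid receptor, had 12 CpG and a ratio of 0.335 (chr15:102257473-102257772, minus strand, summit 240 bp upstream). For Amt, an enzyme of glycine breakdown, the window held 7 CpG at a ratio of 0.313 (chr9:108296655-108296954, plus strand, summit 107 bp upstream). Epcam, an epithelial adhesion molecule, had 11 CpG and a ratio of 0.454 (chr17:87635729-87636028, plus strand, summit 220 bp upstream). Grhl3, a grainyhead-like factor of epithelia, had 12 CpG, a ratio of 0.492 and 2 matches to CCAAT (chr4:135573583-135573882, minus strand, summit 8 bp downstream).

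The pSHF-restricted peaks at gene ends were weak and narrow. Each list ends at a q-value threshold, so the strength of a signal bears on whether a peak is listed and counts as restricted, and the strengths that follow are descriptions. Their median fold enrichment over the caller's background was 4.04 (quartiles 3.59 and 4.73), with 2.396 the lowest and 9.694 the highest. HT-restricted peaks at gene ends had a median of 4.39 (3.79 and 5.43), and pSHF peaks at gene ends that overlapped an HT peak, here called shared, 6.46 (4.77 and 8.54). Median width was 158 bp in the pSHF-restricted peaks, 174 bp in the HT-restricted and 456 bp in the shared ones. The pSHF-restricted peaks away from gene ends were similar, with a median fold of 4.31 and a median width of 165 bp. Only 2.94% of the pSHF-restricted peaks (2.33 to 3.66) had more than 1 summit, against 46.9% of shared peaks (46.1 to 47.7).

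Read depth behind these peaks was low, as in the whole pSHF list, where the median summit pileup was 11 reads. The pileup recovered from fold and p-value had a median of 10 reads at the summit (quartiles 8 and 12), against 11 in HT-restricted and 20 in shared peaks at gene ends. A −log10 q of 5 or more was reached by 15.8% of the pSHF-restricted peaks (14.5 to 17.3), by 36.3% of the HT-restricted (34.6 to 38.0) and by 75.9% of the shared (75.2 to 76.6). In pSHF-restricted peaks away from gene ends the median pileup was 8 reads, and 15.9% reached that −log10 q (15.3 to 16.5). The lowest −log10 q among the members was 1.31, against 1.3 in the whole pSHF list.

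**Figure D1:**
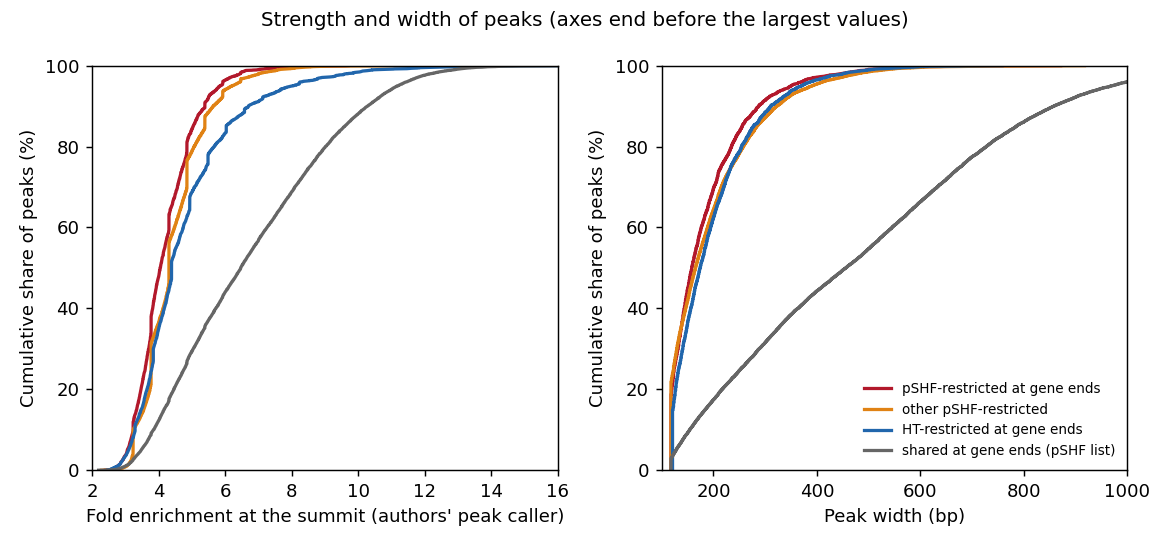
Cumulative share of peaks (%, vertical axes) by fold enrichment at the summit (left) and by width in bp (right), for pSHF-restricted peaks at gene ends, pSHF-restricted peaks elsewhere, HT-restricted peaks at gene ends and shared pSHF peaks at gene ends. The restricted sets rise together at low fold and width, with medians of 4.04, 4.31 and 4.39, while the shared set, with a median of 6.46, lies to the right.

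Many of these peaks stood beside an HT peak rather than far from any. The nearest HT peak began within 500 bp of 43.6% of them (41.7 to 45.5), a share that was 33.4% for HT-restricted peaks measured to pSHF peaks (31.7 to 35.0) and 10.4% for pSHF-restricted peaks away from gene ends (9.87 to 10.9). It was more than 10 kb away for 30.1% (28.4 to 31.9). The median gap was 1230 bp, with quartiles of 150 and 13900 bp. In 11 cases the peaks touched with 0 bp between them, among them peaks at Polr2i, an RNA polymerase II subunit, Flt1, a Vegf receptor, and Zfp300.

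The peaks were therefore split by the state of the gene end in HT. At 1409 of the 2652 (53.1%, 51.2 to 55.0) no HT peak came within 1 kb of the gene end, and at the other 1243 an HT peak did. The 1409 had a median width of 172 bp and fold of 4.31, against 146 bp and 3.84 for the 1243. Median summit pileup was 9 reads in the 1409 and 11 in the 1243, over a local background of 1.16 and 2.09 reads. Their distance to the nearest HT peak had medians of 12800 bp and 137 bp.

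At gene starts the peaks were spread over the promoter and the beginning of the gene, without the sharp rise at the start that shared peaks had. Strand was known for the nearest gene of 1928 peaks, and 81.3% of these were at the gene start (79.5 to 83.0), against 73.6% of HT-restricted (71.7 to 75.4) and 95.1% of shared peaks (94.6 to 95.4). Of the 1567 at a start, 8.62% had the summit over 500 bp upstream, 26.0% within 500 bp upstream, 40.5% under 500 bp into the gene and 24.8% further into it. Within 200 bp of the start lay 29.5% (27.2 to 31.8), against 34.6% of HT-restricted (32.3 to 36.9) and 62.4% of shared peaks (61.5 to 63.3).

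**Figure D2:**
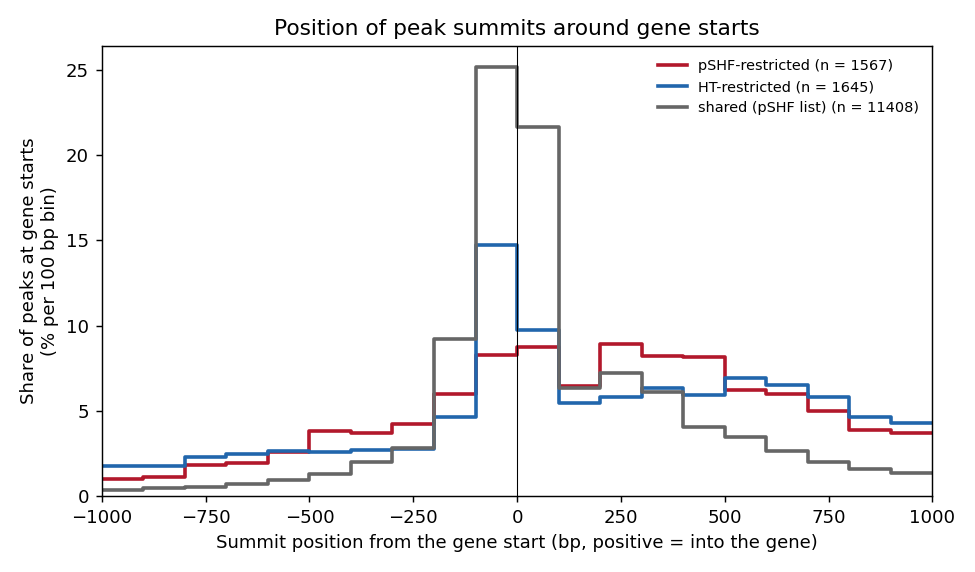
Share of peaks at gene starts (% per 100 bp bin, vertical axis) by summit position in bp from the start, positive into the gene, for 1567 pSHF-restricted, 1645 HT-restricted and 11408 shared peaks. The pSHF-restricted line has no sharp rise at the start, with 29.5% of summits within 200 bp, while the shared line peaks there with 62.4%. It is higher into the gene than upstream, with 8.93% in the bin from 200 bp into the gene against 7.21% of shared peaks.

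Gene 3′ ends differed from gene starts in what HT had there. No HT peak came within 1 kb at 85.3% of the 361 pSHF-restricted peaks at 3′ ends (81.2 to 88.8), against 43.7% of those at starts (41.2 to 46.2). For HT-restricted peaks the same shares, with no pSHF peak nearby, were 88.3% and 49.6%.

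By gene type, 62.3% of the nearest ends belonged to protein-coding genes (60.4 to 64.1) and 31.4% to long noncoding RNA genes (29.6 to 33.2). In shared peaks the shares were 83.6% and 12.7%, and in HT-restricted peaks 59.2% and 31.1%. Pseudogenes took 3.62%, miRNA genes 1.13% and tRNA genes 0.49%, the last against 1.61% of HT-restricted peaks. At noncoding RNA ends 71.8% had no HT peak within 1 kb (68.6 to 74.8), compared with 41.4% at protein-coding ends (39.0 to 43.8). Chromosome 4 had the highest share of its pSHF gene-end peaks restricted, at 17.9%, and chromosome X the lowest, at 10.9%.

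The limit of 1 kb cut through a continuum. Just inside it were peaks with summits 1000 bp from an end of Cnnm3 (fold 3.22) and Kmt2c (3.23) and 999 bp from Arhgap6 (4.2). Just outside were peaks 1001 bp from Slc27a4 (3.56) and 1002 bp from Kcna1 (3.15) and Gm41212 (5.66).

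The strongest pSHF-restricted peak at a protein-coding gene lay at Mcub, a subunit of the mitochondrial calcium uniporter complex. Its fold was 9.61 with 17 reads at a summit 668 bp inside the gene, and the nearest HT peak was 67565 bp away. At the 3′ end of Aebp2, an accessory subunit of Polycomb complex 2, a peak had a fold of 9.47 with 24 reads. The peak at the Amt start (fold 8.26, 17 reads) also lies 300 bp past the end of Nicn1, so it counts for both. Among other genes with a fold of 7 or more were the fibulin gene Efemp1 (7.64), the transcription factor gene Gata3 at its 3′ end (7.67), Rassf6 (7.47) and the PACAP receptor gene Adcyap1r1, which had a pair of peaks (7.33 and 5.89). Lipg, an endothelial lipase gene (7.21), Fnip2 at its 3′ end (7.2), Cib4 (7.11), Ccdc180 (7.03), the ubiquitin ligase gene Cblc (7.03) and the glycosyltransferase gene Gcnt2 (7.0) completed them. Of these, the HT list had a peak close to Efemp1, at 159 bp, and Cib4, at 834 bp, and the gap was 4075 bp or more at the others. The single strongest member of any gene type, with a fold of 9.69, lay at the pseudogene Gm46611, and the next noncoding RNA ends were D530049I02Rik (8.83) and Gm36288 (8.35).

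Mfap4, a microfibril-associated glycoprotein of elastic fibres, had the widest of the 2652 peaks. It spanned chr11:61484667-61485537, 871 bp with 3 summits, at a fold of 7.92 with 30 reads, the highest pileup of any member. The nearest HT peak was 8498 bp away. The next widest lay at Epn3, an epsin of endocytosis (735 bp, fold 5.43), and at 3 noncoding RNA genes, Gm10637 (723 bp), Gm13648 (686 bp) and Gm46423 (680 bp).

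In all, 2827 genes had a pSHF-restricted peak at an end, of which 2570 had 1, 242 had 2 and 15 had 3. Among protein-coding genes, 1755 of 21627 (8.11%) had such a peak and 2030 (9.39%) had an HT-restricted peak. Both kinds stood at 288 genes, 16.4% of those with a pSHF-restricted and 14.2% of those with an HT-restricted peak. Of the 1755, 1127 also had a shared peak at an end, and a shared peak stood at 55.6% of all protein-coding genes. A pSHF-restricted peak with no HT summit at either end of the gene was found at 511 genes (2.36%), and 136 of the 1755 had no HT peak within 10 kb of the gene body. Besides Mcub, Lipg and Rassf6, the strongest of those 136 were Gm4791 (fold 6.56) and the heat shock factor gene Hsf3 (6.46), whose nearest HT peak was 254392 bp away. Gene counts are not counts of independent peaks: 401 peaks lay near ends of more than 1 gene, and 1 of them near ends of 25 genes, mostly in the gamma protocadherin cluster, whose genes share their last exons.

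Foxf1, a forkhead factor of splanchnic mesoderm and a target of Hedgehog signaling, had 3 pSHF-restricted peaks at 1 end of its gene and no HT peak of any kind there. The peaks spanned chr8:121083614-121083886 (fold 3.5, 14 reads), chr8:121083938-121084121 (3.26, 13 reads) and chr8:121084581-121084698 (3.83, 16 reads). The nearest HT peak to any of them was 8009 bp away. No pSHF peak at Foxf1's ends was shared, and each of the 3 was below the median fold of all such peaks. The strand of Foxf1 was not in the tables used here, so the end is named only by position.

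Twist2 had 3 as well, with summits 390 bp and 95 bp upstream of its start and 259 bp into the gene. Their folds were 3.36, 4.92 and 4.01, with 10, 15 and 12 reads. The nearest HT peak was 29174 bp or more from each. Further protein-coding genes with 3 pSHF-restricted peaks and no HT-restricted or shared peak at an end included the serine protease gene Klk8 (highest fold 5.02), Unc93b1, which traffics Toll-like receptors (5.02), Lonrf3 (4.44), the sphingolipid synthesis gene Sptlc3 (4.49) and Clmn (4.16). At the zinc finger gene Rreb1 (5.17) and the raft protein gene Rftn1 (4.61) 1 HT-restricted peak stood at an end as well. Noncoding RNA genes Gm41624 (6.03) and Gm51486 (4.41) also had 3.

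**Figure D3:**
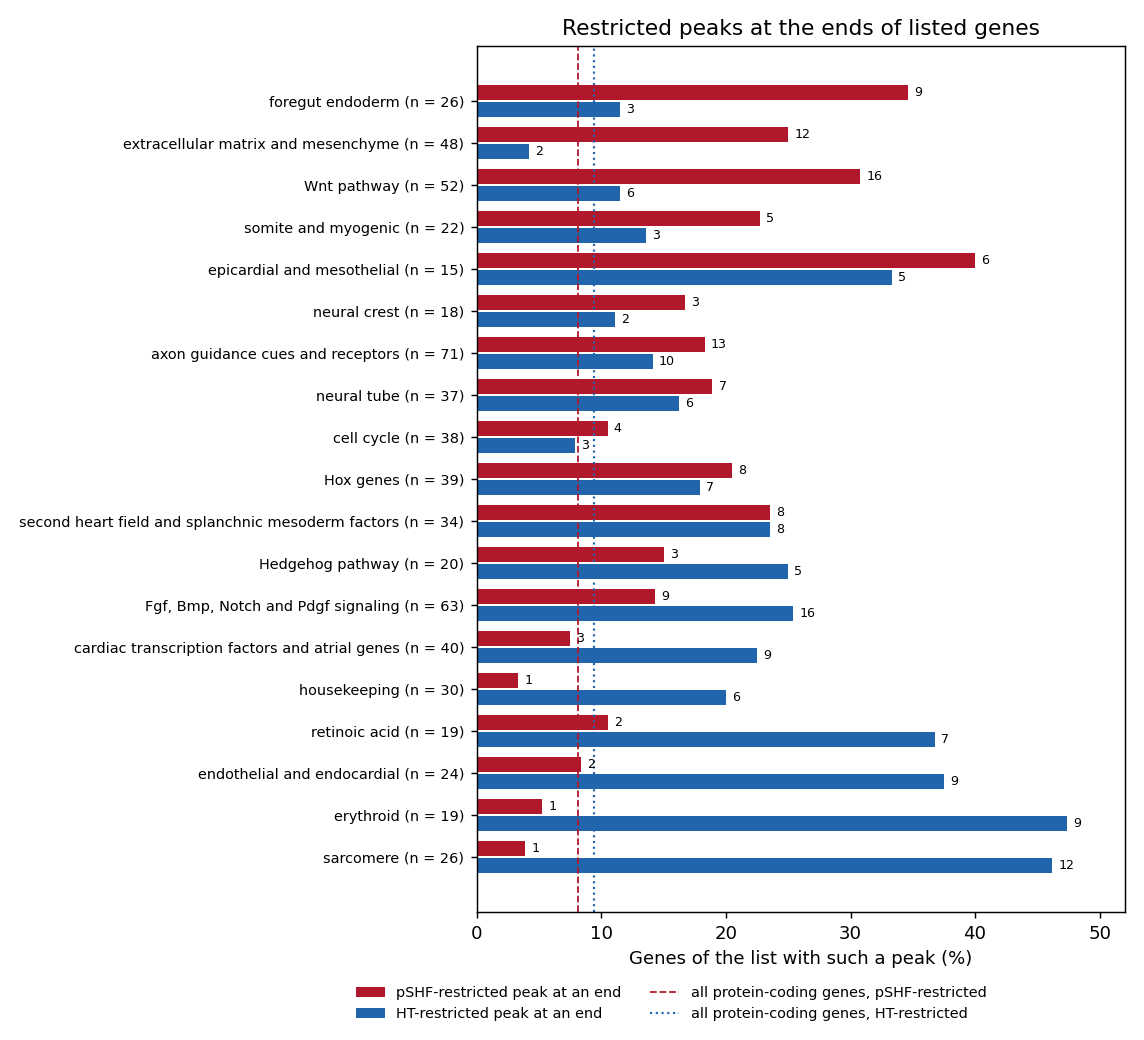
Genes of each list (%, horizontal axis) with a pSHF-restricted peak at an end (upper bar) and with an HT-restricted peak at an end (lower bar), with the number of genes beside each bar. Dashed and dotted lines mark all protein-coding genes, 8.11% and 9.39%. Endoderm, matrix and Wnt lists have longer pSHF bars, and sarcomere, erythroid and endothelial lists longer HT bars.

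Named gene groups were then read against those backgrounds, 8.11% for pSHF-restricted and 9.39% for HT-restricted peaks. Of 619 distinct listed genes, 108 had a pSHF-restricted peak at an end. The highest fold at a gene had a median of 3.98 over all 1755 protein-coding genes, and the medians of the lists with more than 1 such gene ran from 3.14, in cardiac transcription factors and atrial genes, to 4.89, in endothelial and endocardial genes. The difference between tissues was not tested for any list.

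Extracellular matrix and mesenchyme genes had more pSHF-restricted than HT-restricted peaks at their ends. Of 48, 12 had a pSHF-restricted peak at an end (25.0%, 13.6 to 39.6) and 2 had an HT-restricted peak (4.17%, 0.509 to 14.3). At 8 of the 12, HT had no summit at either end. They included the collagen genes Col13a1, Col15a1, Col6a1, Col9a2 and Col9a3, the cartilage proteoglycan gene Acan, the elastin gene Eln, and Twist2. Col13a1 had a peak 47 bp inside its start (fold 4.11, 13 reads) and a second 800 bp upstream of its 3′ end (5.49, 10 reads). At Acan the summits were 261 bp upstream of the start (5.47, 11 reads) and 129 bp into the gene (3.69, 7 reads). Col6a1 had 12 reads at a fold of 5.15, in the CpG-poor window shown above. The median of the highest folds was 3.92.

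The Wnt list had the largest number of genes with a pSHF-restricted peak. These were 16 of 52 (30.8%, 18.7 to 45.1), against 6 with an HT-restricted peak (11.5%, 4.35 to 23.4), and Wnt2b had both. Ligand genes were Wnt1 (fold 4.07), Wnt2b, Wnt4, Wnt5b (5.15), Wnt7a (4.38), Wnt8a and Wnt16, and receptor genes were Fzd2, Fzd7, Fzd9 and Lgr6. Genes of secreted antagonists were Dkk1 (4.64), Dkk2 (4.79 and 4.77) and Wif1 (4.82, at the 3′ end), with Rspo4, whose product potentiates Wnt signals, and Tcf7l1, a transcriptional effector. Of the 52 genes, 36 had a shared peak at an end. HT had no summit at either end of 5 genes: Dkk2, Lgr6, Wnt1, Wnt7a and Wnt8a. Dkk2 had its pair of summits 101 and 534 bp into the gene with 17 reads each, and the nearest HT peak began 968 bp from the first. With the limit at 500 bp in place of 1 kb the Wnt counts were 5 and 4 genes.

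Second heart field and splanchnic mesoderm factors were evenly divided. Of 34, 8 had a pSHF-restricted peak (23.5%, 10.7 to 41.2) and 8 an HT-restricted peak, with Meis2 and Tbx18 in both sets. The 8 with a pSHF-restricted peak were Fgf10 (fold 4.34), Foxf1, Foxf2 (2.69), Isl1 (3.68), Meis2 (5.15), Nkx3-2 (4.19), Six2 (3.02) and Tbx18 (3.77 and 3.36). Isl1, the LIM-homeodomain factor that marks second heart field progenitors, had its peak 759 bp past the 3′ end and 2 shared peaks at its ends. Meis2's was also at the 3′ end, with 25 reads, and Fgf10's lay 452 bp into the gene, 170 bp from an HT peak. Foxf1 and Foxf2 were the pair in the list with no HT summit at either end. Shared peaks stood at 23 of the 34 genes, more than had a restricted peak of either tissue.

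**Figure D4:**
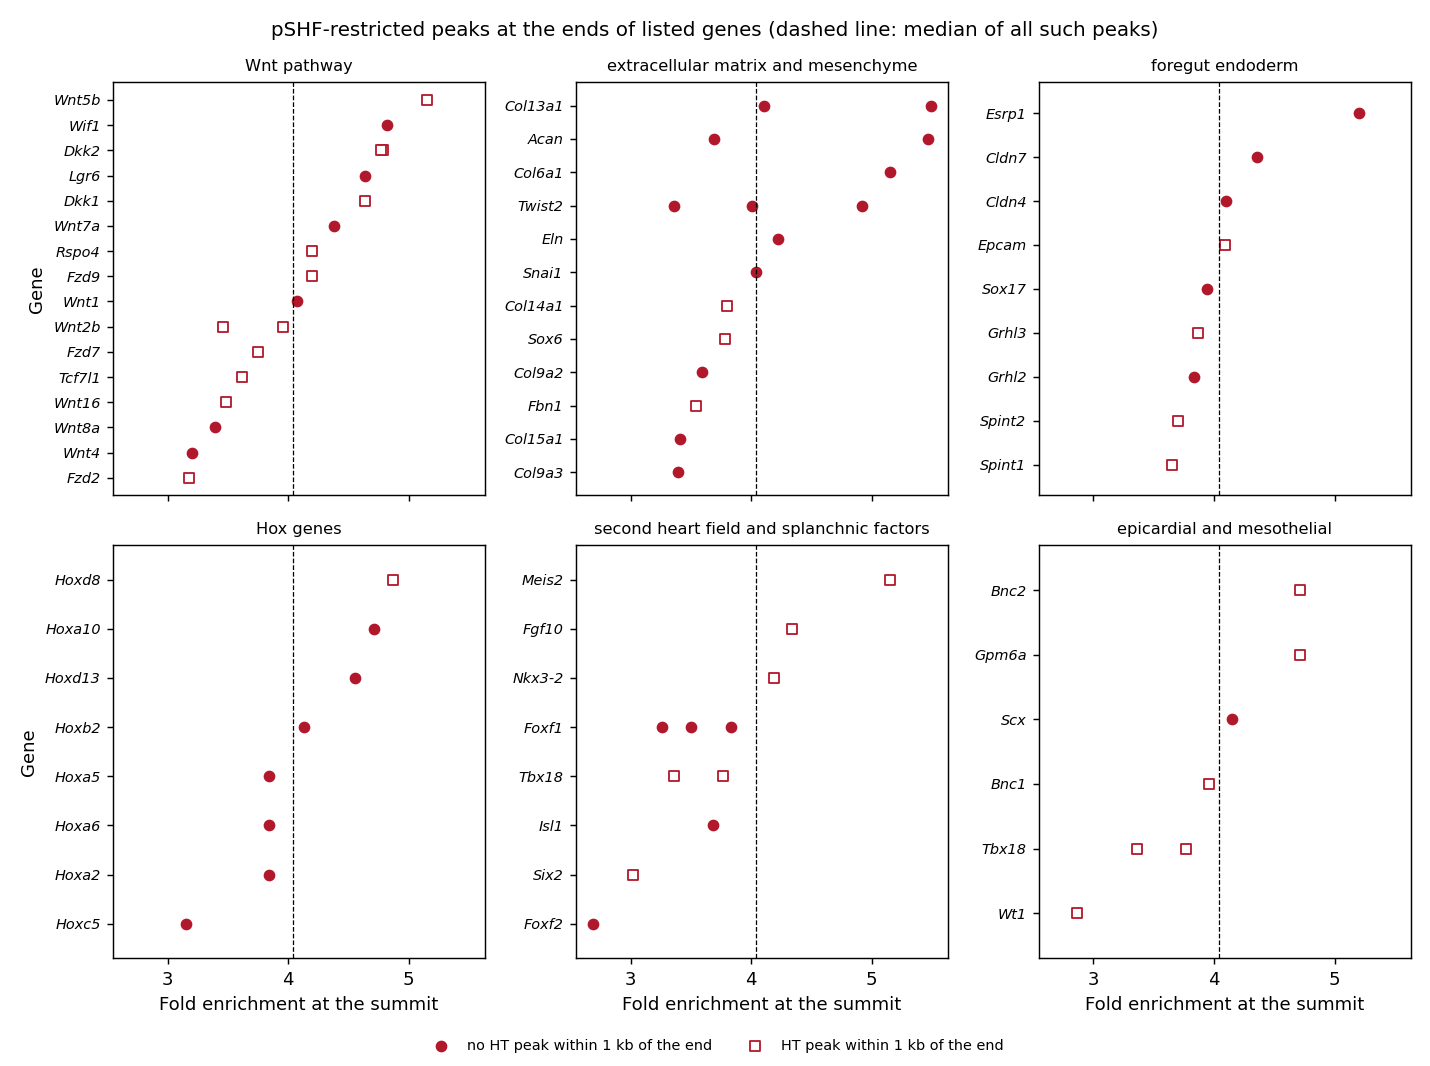
Fold enrichment at the summit (horizontal axis) of each pSHF-restricted peak at the ends of genes (rows) in 6 lists. Filled circles have no HT peak within 1 kb of the nearest gene end and open squares have one. The dashed line is the median of all 2652 peaks, 4.04. Wnt genes are mixed, while matrix and Hox genes are mostly filled circles.

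Of 20 Hedgehog pathway genes, 3 had a pSHF-restricted peak at an end (15%, 3.21 to 37.9) and 5 an HT-restricted peak (25.0%, 8.66 to 49.1). Both intervals included the share of all protein-coding genes, and HT had a summit at an end of each of the 3. The 3 were Disp1, needed for release of the ligand (fold 4.04, 8 reads), Gpr161, a ciliary receptor that restrains the pathway (3.4, 11 reads), and Gli3 (3.17, 18 reads, 681 bp into the gene and 490 bp from an HT peak). Gas1, Ptch1 and Hhip, the co-receptor, receptor and inhibitor that are also pathway targets, had only shared peaks at their ends on the pSHF side. Gli1 and Gli2 had no pSHF-restricted and 1 HT-restricted peak each. Of the other genes chosen by name, Osr1 and Aldh1a2 had only shared peaks, Tbx5 had 1 HT-restricted peak, and Nkx2-5 had no peak of either list at its ends.

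Retinoic acid genes leaned to HT, with 2 of 19 holding a pSHF-restricted and 7 an HT-restricted peak. The 2 were Rarg (fold 4.02, 10 reads, nearest HT peak 9692 bp away) and Crabp2, a cytoplasmic binding protein gene (3.17, 14 reads). Keeping peaks at or above each list's median fold turned this to 2 against 1. The Rarg and Crabp2 peaks named here were below that median, 4.85 in pSHF. The 2 genes then counted had other pSHF peaks, which overlap an HT peak below the limit in the full lists. Among Fgf, Bmp, Notch and Pdgf signaling genes 9 of 63 (14.3%, 6.75 to 25.4) had a pSHF-restricted and 16 (25.4%, 15.3 to 37.9) an HT-restricted peak. HT had a summit at an end of each of the 9. The strongest were at the receptor genes Fgfr4 (5.23, 318 bp into the gene), Notch4 (4.32) and Fgfr2 (4.32) and at Fgf10.

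Hox genes had 8 of 39 with a pSHF-restricted peak (20.5%, 9.3 to 36.5), against 7 with an HT-restricted peak. They were Hoxa2, Hoxa5, Hoxa6, Hoxa10, Hoxb2, Hoxc5, Hoxd8 and Hoxd13, and at all but Hoxd8 HT had no summit at either end. Hoxa5 and Hoxa6 share 1 peak between them (fold 3.84, 12 reads), so 7 peaks were behind the 8 genes. Hoxd8 (4.87), Hoxa10 (4.71), Hoxd13 (4.55) and Hoxb2 (4.13) had the highest folds. A shared peak stood at an end of 4 of the 39. Of axon guidance genes, 13 of 71 had a pSHF-restricted peak (18.3%, 10.1 to 29.3) and 10 an HT-restricted peak, and 4 had both. HT had no summit at the ends of 5 of them, Efna5, Ntn1, Plxnc1, Robo3 and Sema3a. The secreted cue gene Sema3a had peaks 490 and 835 bp into the gene (4.93 and 5.37), 72308 bp or more from any HT peak, and the netrin receptor gene Neo1 had its strongest at the 3′ end (5.39).

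Markers of tissue next to the pSHF were also among the genes. Of 26 foregut endoderm genes, 9 had a pSHF-restricted peak (34.6%, 17.2 to 55.7) and 3 an HT-restricted peak (11.5%, 2.45 to 30.2), and 12 had a shared peak at an end. The 9 were the adhesion and junction genes Epcam (fold 4.09), Cldn4 (4.1) and Cldn7 (4.36), the splicing regulator gene Esrp1 (5.2), the transcription factor genes Grhl2, Grhl3 and Sox17 (3.94), and the protease inhibitor genes Spint1 and Spint2. At 5 of them, Cldn4, Cldn7, Esrp1, Grhl2 and Sox17, HT had no summit at either end. Their 8 to 18 reads at the summit were in the range of the other members. With peaks of −log10 q of 5 or more alone the counts were 4 pSHF-restricted and 3 HT-restricted genes, and at or above each list's median fold 4 and 2. All protein-coding genes had shares of 3.59% and 8.13% at the first of these settings, and 5.28% and 5.12% at the second. Of the 9 genes, Esrp1 alone had a pSHF-restricted peak that reached either limit (fold 5.2, −log10 q 7.25). The other genes counted at these settings had pSHF peaks that overlap an HT peak below the limit in the full lists. Whether endoderm cells in the dissected pieces gave these peaks was not tested.

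Other neighbouring tissues gave smaller differences. Somite and myogenic genes counted 5 of 22 with a pSHF-restricted and 3 with an HT-restricted peak, and Myod1 (4.42) and Scx (4.15) had no HT summit at the ends. Neural tube genes counted 7 of 37 and 6, led by Lhx1 (3.86), Lhx9 (3.83), Neurod1 (3.69) and Nkx6-2 (3.37). Of 18 neural crest genes 3 and 2 were counted, the 3 being Ets1 (5.21), Ret (4.43 and 4.21) and Dlx5 (4.3), all without an HT summit at the ends. The share was highest in epicardial and mesothelial genes, 6 of 15 (40.0%, 16.3 to 67.7) against 5 with an HT-restricted peak, and it included Bnc1 (3.96), Bnc2 (4.71), Gpm6a (4.71) and Wt1 (2.86).

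In lists of the differentiated heart and its vessels HT-restricted peaks were the more frequent kind. Of 26 sarcomere genes, 1 had a pSHF-restricted peak (3.85%, 0.0973 to 19.6), Tnni1 at its 3′ end (fold 4.06), while 12 had an HT-restricted peak (46.2%, 26.6 to 66.6). Cardiac transcription factors and atrial genes counted 3 of 40 (7.5%, 1.57 to 20.4), Gja5 (4.3), Hey2 (3.14) and Irx5 (3.11), against 9 with an HT-restricted peak (22.5%, 10.8 to 38.5). Endothelial and endocardial genes counted 2 of 24 (8.33%, 1.03 to 27.0), the Vegf receptor genes Flt1 and Flt4, against 9 (37.5%, 18.8 to 59.4), and both had an HT peak within 145 bp. The pSHF-restricted shares of the cardiac and endothelial lists were near the 8.11% of all protein-coding genes, and it was the HT-restricted shares that lay above their background of 9.39%. Of 19 erythroid genes, 9 had an HT-restricted peak (47.4%, 24.4 to 71.1). Housekeeping genes, of which 27 of 30 had a shared peak, counted 1, Gusb (3.71), against 6. Cell cycle genes, of which 32 of 38 had a shared peak, counted 4, Ccne1 (4.34), Cdkn2c (4.03), E2f2 (3.7 and 3.11) and Mki67 (3.18), against 3. With peaks of −log10 q of 5 or more alone, the Hox, axon guidance, somite, neural tube, epicardial and cell cycle lists turned to more genes with an HT-restricted peak. At that setting 3.59% of all protein-coding genes had a pSHF-restricted and 8.13% an HT-restricted peak. At 50% reciprocal overlap the Hedgehog and housekeeping lists turned to more with a pSHF-restricted peak, over backgrounds of 21.6% and 18.3%. These turns went the way the backgrounds had moved and are not read as results about the lists.

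MicroRNA genes made up 34 of the 2827 genes. These were 34 of 1228 annotated miRNA genes, a lower share than the 2827 of 49550 genes of all types. Both ends of a miRNA gene lie close together and cover nearly the same stretch. Shares of miRNA genes are therefore not on equal terms with those of longer genes. At 23 of the 34 HT had no summit at either end, as at 564 of 882 long noncoding RNA genes and 511 of 1755 protein-coding genes with a pSHF-restricted peak. RefSeq hairpins were matched for 28. Shown here are the mature forms for 6 of them that were matched by name, with the seed, bases 2 to 8, in capitals; no seed was shared among them.
miR-203-3p: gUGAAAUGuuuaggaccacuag
miR-219a-5p: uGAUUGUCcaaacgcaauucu
miR-137-3p: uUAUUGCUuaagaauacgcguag
miR-615-3p: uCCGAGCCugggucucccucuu
miR-125b-5p: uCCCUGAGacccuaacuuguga
miR-193a-3p: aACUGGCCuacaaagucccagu

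Mir203, whose product is best known from epidermis, had a peak 208 bp from its nearer end (fold 4.89), with the nearest HT peak 14476 bp away. The Mir219a-2 peak lay 387 bp away (4.31) and served Mir219b as well. Mir137 and the neural Mir124a-3 had peaks at 124 bp (3.69) and 425 bp (3.49). Mir615, which lies inside the Hoxc cluster, shared the Hoxc5 peak (3.15, 620 bp away). Mir125b-1 (4.15) and Mir193a (3.31) completed the printed set, and at Mir193a an HT peak lay 271 bp off.

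CpG content split the promoters with a pSHF-restricted peak by what HT had there. Of 685 RefSeq windows with such a peak and no HT peak within 1 kb, 21.3% were CpG-rich (18.3 to 24.6), meaning an observed-to-expected ratio of 0.6 or more and a GC content of at least 50%. When an HT peak was also within 1 kb, 66.0% of 1125 windows were CpG-rich (63.1 to 68.7). For HT-restricted peaks with no pSHF peak the share was 17.4% of 835 (14.9 to 20.1), for shared peaks 72.0% of 12454, for windows with no peak 3.76% of 16152, and over all 32585 windows 33.7%. The median ratio was 0.369 in the 685 and 0.3 in the 835 HT-restricted windows. Several windows can belong to 1 gene, the 685 to 614 genes, and a window with both a shared and a pSHF-restricted peak counts in both classes.

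**Figure D5:**
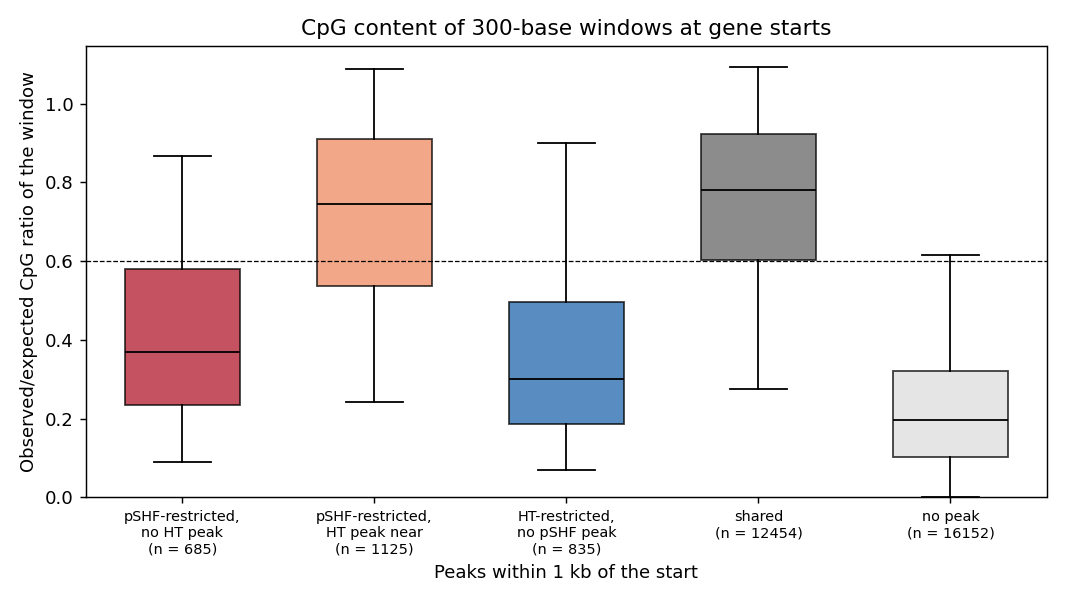
Observed-to-expected CpG ratio (vertical axis) of 300-base windows at gene starts, by the peaks within 1 kb. Boxes show quartiles and the median, whiskers the 5th and 95th percentiles, and the dashed line the ratio of 0.6. Windows with a pSHF-restricted peak and no HT peak sit low, with a median of 0.369, and those with an HT peak nearby sit high, at 0.746.

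Short motifs were looked for on both strands of the same windows, as letters and not as bound sites. The letters AGATAA, the core that GATA factors bind, were in 8.91% of the 685 windows with a pSHF-restricted peak and no HT peak (6.88 to 11.3), in 16.8% of the 835 HT-restricted windows (14.3 to 19.5) and in 11.2% of all windows. TATAAA, the TATA box, was in 9.34% (7.27 to 11.8), 15.3% (13.0 to 18.0) and 13.7%. Both differences were also present among CpG-poor windows alone, with AGATAA at 11.1% (8.6 to 14.1) in pSHF-restricted and 19.4% (16.5 to 22.6) in HT-restricted windows, and TATAAA at 9.83% (7.45 to 12.7) and 17.4% (14.6 to 20.4). Among CpG-rich windows AGATAA was in 0.685% and 4.14%, while TATAAA was in 7.53% (3.82 to 13.1) of pSHF-restricted and 5.52% (2.41 to 10.6) of HT-restricted windows. TATTTATA, a MEF2 form, was in 1.02% (0.412 to 2.09), 3.23% (2.14 to 4.67) and 1.71%, and the other MEF2 form, TAAAAATA, in 2.04% (1.12 to 3.41), 2.51% (1.56 to 3.82) and 2.64%. Of 22 motifs searched, the GATA core, the TATA box and the first of these MEF2 forms were the 3 whose intervals for pSHF-restricted and HT-restricted windows did not overlap, with no allowance for the number searched. Every TATTTATA holds TATAAA on the opposite strand. All windows with this MEF2 form are therefore also TATA box windows, and the MEF2 and TATA box differences are not separate results. The HOX-PBX letters TGATTGAT were in 1.61% (0.804 to 2.86), which is 11 windows, against 0.479% (0.131 to 1.22) and 0.752%. In the 273 windows that held the summit, AGATAA was in 5.13% (2.83 to 8.45) and TATAAA in 8.42% (5.42 to 12.4). TATTTATA was in 0.733% of the 273 (0.0888 to 2.62) and TGATTGAT in 2.2% (0.811 to 4.72). HT-restricted windows were not narrowed in this way.

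The letters of ubiquitous promoter factors were less frequent than in shared promoters, as the CpG content of the classes also was. GGGCGG was in 34.0% of the pSHF-restricted windows, 28.6% of the HT-restricted and 67.2% of the shared ones. Among the 273 pSHF-restricted windows that held the summit its share was 43.2% (37.3 to 49.3). CCGGAAG, an ETS form, was in 3.65%, 5.99% and 17.8%. Among CpG-rich windows alone, GGGCGG was in 70.5% of the pSHF-restricted and 77.2% of the shared ones, and CCGGAAG in 2.74% and 20.9%. Among CpG-poor windows the shares were 24.1% and 41.6% for GGGCGG, and 3.9% and 9.71% for CCGGAAG. The GLI letters GACCACCCA were in 0 of the 685 windows, which allows a share of up to 0.438% when 0 is read as at most 3 windows (the Clopper-Pearson limit is 0.537%), and in 0.255% of all windows. With up to 1 mismatch they were in 6.72% (4.96 to 8.86) of the pSHF-restricted windows, 7.07% of the HT-restricted and 6.79% of all.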

How the data were processed

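ATAC-seq was made from 3 pSHF and 3 HT samples, per the labels. Bowtie2 2.3.2, SAMtools 1.5, Picard and MACS2 2.1.1 with genome build mm10 were used, per the submitters' processing notes; for their roles and parameters, and for any pooling of samples before peak calling, no statement is given in the sources used here. In the deposited lists there are 58887 pSHF and 60223 HT lines, each a summit with a score, a fold enrichment (a ratio over background), a −log10 p-value and a −log10 q-value, as deposited by the authors.

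Lines with equal start and end were merged and the summit of highest fold was kept. Pileup was recovered as the whole number k for which fold equals (k + 1) divided by (background + 1) and the Poisson tail gives the deposited −log10 p, with a largest misfit of 7.1e-05 in pSHF. Read totals were not given, so depth is known only through these pileups. Gene ends came from the RefSeq gene table of GRCm38.p6 (49550 genes on 20 chromosomes), and strand and promoter windows from the RefSeq promoter table, which gave strand for 17273 protein-coding genes. Of 621 listed symbols 619 matched. Intervals beside shares are 95% Clopper-Pearson (exact binomial) and reflect nothing but counting error. The steps were tested on simulated peaks. Python 3, pandas and SciPy were used. The 2652 peaks, the 19 gene lists and the motifs were chosen with earlier results of these data known. Genes were named by a rule: the 15 protein-coding genes with the strongest members, the 10 with most members, up to 4 per list, 5 without an HT peak within 10 kb, the 5 widest members, those at the limits, and 12 genes by name; other members of the lists are named because they were counted, and miRNA genes were chosen after their values were seen. The value of 1 listed gene is not reported here.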

Additional observations from a re-analysis of the deposited data

How the results depend on the processing

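No paired analysis was possible because each tissue came as 1 peak list with no values per replicate, and for the same reason no replicate could be left out. Low pileup, a median of 10 reads, limits what can be said of single peaks. For each of 19 lists at 8 settings, genes with a pSHF-restricted minus genes with an HT-restricted peak was compared with the same difference as first counted. Of these 152 comparisons, 82 were unchanged or stayed within 1.5 times, 52 moved further and 18 changed direction. In all 8 settings more genes had a pSHF-restricted than an HT-restricted peak in the matrix, Wnt and endoderm lists. Fewer had one in the sarcomere, cardiac, endothelial and erythroid lists. The difference was as little as 1 gene in the Wnt and endoderm lists. The setting with protein-coding genes only could not change a list, since the lists count protein-coding genes alone. Letting any summit stand for its peak left the counts of every list as reported. Both settings are included in the 82 and add nothing to the direction of a list. In each case the cause of a shift was not tested. At a −log10 q of 5 or more in both lists, a pSHF peak also counts as restricted if its HT partner falls below that limit.

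For a −log10 q of at least 5, the median fold of each list or more, 50% reciprocal overlap, and a 500 bp gap counted as shared, the 2652 peaks became 1005, 1629, 6814 and 1497, their share of restricted peaks 23.9%, 20.9%, 28.4% and 11.8%, the share with no HT peak at the end 72.5%, 84.6%, 20.8% and 92.8%, the share at gene starts 86.7%, 85.1%, 88.6% and 70.4%, genes with a peak 1154, 1811, 6625 and 1490, peaks at protein-coding ends 700, 1068, 5005 and 745, listed genes 56, 60, 205 and 55, and peaks at or above the median width of the pSHF list 51.2%, 54.4%, 28.9% and 22.2% (16.3% as reported). With the summit within 500 bp the number was 1691, the share 11.2%, the share without an HT peak 55.4%, at starts 85.6%, genes 1738 and protein-coding ends 1039; within 2 kb the 3 shares were 24.3%, 57.7% and 75.5%. With protein-coding genes only the values were 1749 peaks, 11.6%, 40.6%, 86.6%, 1755 genes and a width share of 13.9%. Of the 2652 peaks, 420 reached a −log10 q of 5, so most of the 1005 overlap a weaker HT peak in the full lists. The upper quartile of fold among the 2652, 4.73, was below the pSHF median of 4.85, so most of the 1629 also overlap one. Promoters whose window holds the summit were CpG-rich in 34.1%, against 49.1% of all with a pSHF-restricted peak within 1 kb.

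The shares of all protein-coding genes with a pSHF-restricted and an HT-restricted peak also moved with the setting. They were 3.59% and 8.13% at −log10 q of 5, 5.28% and 5.12% at the median fold, and 21.6% and 18.3% at 50% reciprocal overlap. With a 500 bp gap they were 3.36% and 5.09%, at 500 bp 4.92% and 5.28%, and at 2 kb 11.2% and 14.1%. Against these shares, genes with a pSHF-restricted minus genes with an HT-restricted peak changed sign as follows. At −log10 q of 5 it was -1 for Hox, -1 for axon guidance, -2 for cell cycle, -1 for somite, -2 for neural tube and -5 for epicardial genes. At the median fold it was 1 for retinoic acid, -1 for cell cycle, -1 for somite, -2 for neural tube and -5 for epicardial genes. At 50% reciprocal overlap it was 1 for Hedgehog and 1 for housekeeping genes. With a 500 bp gap it was -1 for cell cycle, -3 for neural tube and -2 for epicardial genes, and for cell cycle it was -1 at 500 bp and at 2 kb.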

Other observations

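Claudins, the membrane proteins of tight junctions, were looked at after their values were seen and after Cldn4 and Cldn7 had been counted in the endoderm list. Of 35 claudin genes, 6 had a pSHF-restricted peak at an end (17.1%, 6.56 to 33.6) and 1 had an HT-restricted peak (2.86%, 0.0723 to 14.9), against 8.11% and 9.39% of all protein-coding genes, and both intervals included those shares. At 5 of the 6, HT had no summit at either end. Cldn3 had a pair of peaks upstream of its start, at 473 and 89 bp, with folds of 4.52 and 4.08 and no HT peak closer than 15180 bp. Cldn8 had a fold of 4.96 with the nearest HT peak 137614 bp away, Cldn9 4.46, Cldn7 4.36, Cldn4 4.1 and Cldn23 3.44. Whether epithelial cells in the dissected pSHF gave these peaks was not tested.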
